A study of Homo sapiens with 3 samples.

Results

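The 37 genes described here make up the cholesterol and fatty acid synthesis pathways and their SREBP regulators, as listed by gene symbol. They were found in the deposited table by mapping its RefSeq transcripts to symbols, which gave 72 transcripts of these genes among 20104 transcripts, and 37 of 12582 genes. RNA came from SW480, a human cell line established from a colon adenocarcinoma and grown in McCoy's medium with serum. The labels describe 3 libraries in 2 groups: 1 of cells transduced with shRBMS1, a short hairpin RNA against the RNA-binding protein RBMS1, and 2 of cells transduced with shControl. All were taken 48 hours after transduction as total RNA depleted of ribosomal RNA. The knockdown rests on 1 hairpin and 1 library, and the labels do not say whether the shControl libraries carry the same hairpin.

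Cells build cholesterol from acetyl-CoA through mevalonate, farnesyl diphosphate, squalene and lanosterol, and build fatty acids from the same acetyl-CoA through malonyl-CoA and palmitate. The transcription factors SREBF1 and SREBF2 drive both arms: SCAP escorts them from the endoplasmic reticulum to the Golgi, where they are cut and released, and INSIG proteins hold SCAP back when sterols are plentiful. Tumour cells commonly make their own lipids even when serum supplies them. RBMS1 binds A+U-rich sequence in RNA, and the question put to these libraries is how transcript levels stand once RBMS1 is reduced.

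All values are log2 fold changes of shRBMS1 over shControl, so that a positive value is higher in the knockdown. A transcript's value is the authors' own, from their deposited table, and for a gene the median over its transcripts was taken. The authors' deposited table holds no level per library, so no value has an error, no test can be run, and the depth behind each value is unknown. RBMS1 itself, on chromosome 2 at 160272151 to 160493807 (hg38), had transcripts at −1.36 and −1.62 by the authors' deposited table, a gene value of −1.49 or 35.6% of control, and its sign is what set the direction of the ratio. Of 8 markers of colon epithelium 7 had a transcript in the table, as did 2 of 10 markers of leukocytes, fibroblasts and endothelium (CD68 and LYZ). In bulk RNA, fewer cells of a type and less RNA per cell cannot be told apart.

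The pathway as a whole lay close to control. The median of the 37 genes was −0.09, which is 93.7% of control, with quartiles of −0.40 and 0.16, beside a median of 0.01 and quartiles of −0.25 and 0.23 over all 12582 genes. Below 0 lay 21 of the 37 (56.8%) and 48.5% of all genes. Within 0.5 of 0 lay 32 of the 37 (86.5%) and 76.9% of all genes. Over transcripts these shares were nearly the same, 66.7% of the members' and 65.6% of all transcripts.

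At the fold of 1 on the log2 scale, 2 of the 37 genes (5.41%) were lower, MVK and FDFT1, where 3.96% of all genes were lower by that much, and 0 were higher, where 3.95% of all genes were higher. Each of the 2 rests on a pair of transcripts on opposite sides of 0, and with the least changed transcript MVK would stand at 0.71 and FDFT1 at 0.25. At 0.5, 5 (13.5%) were lower and 0 were higher, beside 12.9% lower and 10.2% higher among all genes. The other 3 were SCD at −0.86, INSIG2 at −0.74 and SREBF1 at −0.56. At the upper end stood SQLE at 0.47, ACSL4 at 0.47 and ACAT2 at 0.36. Over transcripts, 7 of 72 (9.72%) were lower by at least 1, beside 7.86% of all transcripts, and 3 of 72 (4.17%) were higher by at least 1, beside 8.27% of all transcripts. At these thresholds the shares of lower members and lower transcripts stand near those of the whole table, and these counts are too small to read more from them.

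**Figure D1:**
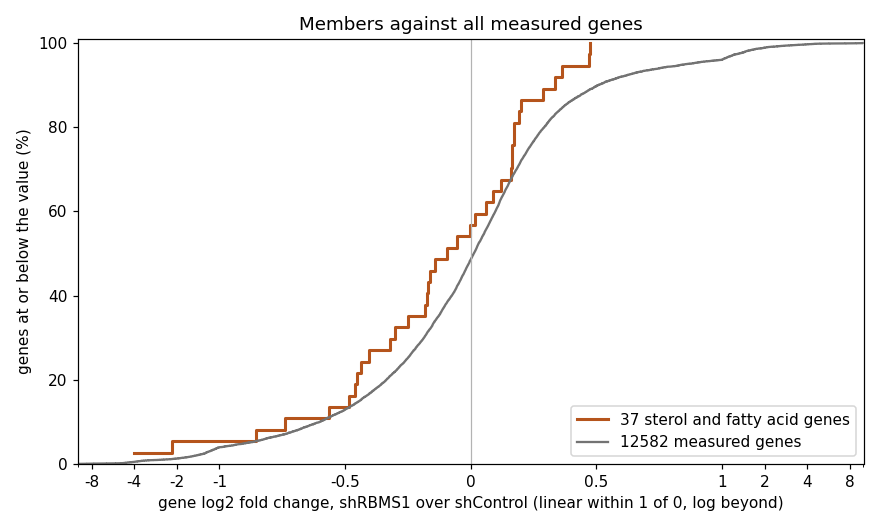
Cumulative share of genes (vertical axis, %) at or below each gene log2 fold change, shRBMS1 over shControl (horizontal axis, linear within 1 of 0 and logarithmic beyond), for the 37 sterol and fatty acid genes and for all 12582 measured genes. The curve of the 37 ends at 0.47 on the right, and 2 of its genes lie below −1 on the left.

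Members differed in how many transcripts stand behind their value, 1 for 15 genes and from 2 to 5 for the rest. The 15 members with 1 transcript ran from −0.86 for SCD to 0.47 for SQLE, with a median of −0.17 and 10 of 15 (66.7%) below 0. Over all 7985 genes with 1 transcript the median was 0.0025, and 49.6% lay below 0. Of these 15, 0 were lower and 0 higher by at least 1, beside 3.23% lower and 3.31% higher among all 7985 genes with 1 transcript, shares too small for 15 genes to be read against. The 22 members with several transcripts had a median of 0.03, and 18 of them (81.8%) had transcripts on both sides of 0, beside 66.5% of all 4597 genes with several transcripts. Transcripts lay more than 1 apart in 13 of the 22 (59.1%) and in 49.3% of all such genes. The median distance between the highest and lowest transcript was 1.12 for members and 0.98 for all such genes. The plot of every transcript shows these distances gene by gene.

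**Figure D2:**
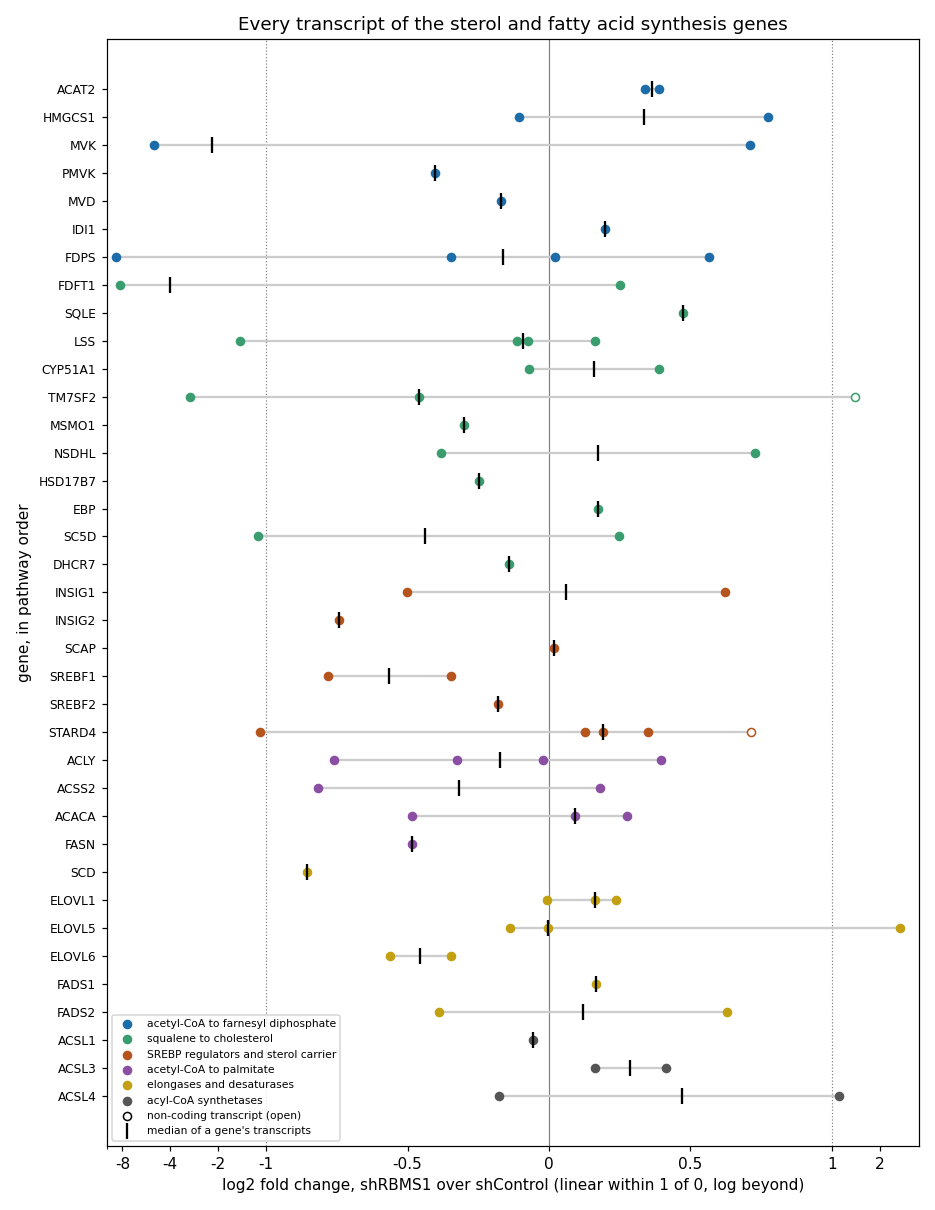
Log2 fold change of shRBMS1 over shControl (horizontal axis, linear within 1 of 0 and logarithmic beyond) for all 72 transcripts of the 37 genes, listed down the page in pathway order and coloured by pathway group. Filled points are coding transcripts, open points the 2 non-coding ones, black ticks the gene medians and dotted lines a fold of 1. The far-left points belong to MVK, FDPS, FDFT1 and TM7SF2, each of which also has a transcript near or above 0.

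From acetyl-CoA to farnesyl diphosphate, 7 genes had a median of −0.16, with 4 below and 3 above 0. ACAT2, the cytosolic thiolase that joins acetyl-CoA units, had the smallest spread among genes with more than 1 transcript, its values being 0.34 and 0.39 by the authors' deposited table. HMGCS1, which makes HMG-CoA (chromosome 5 at 43287470 to 43313412), had 0.77 for NM_002130 and −0.10 for NM_001098272 in the authors' deposited table. These HMGCS1 transcripts link to GENCODE models with the same coding bases and start sites 19 bases apart, and thus encode the same protein.

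Mevalonate kinase, MVK (chromosome 12 at 109573272 to 109598125), had transcripts far from each other. By the authors' deposited table NM_000431 lay at −5.06, which is 2.99% of control, and NM_001114185 lay at 0.71, or 164% of control. Both link to the same GENCODE 29 model, so the annotation used here does not tell them apart, and the gene value of −2.18 lies between them. The next enzymes had 1 transcript each in the authors' deposited table. Phosphomevalonate kinase, PMVK, lay at −0.40, the decarboxylase MVD at −0.17 and the isomerase IDI1 at 0.20 in that deposited table.

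FDPS, farnesyl diphosphate synthase (chromosome 1 at 155308866 to 155320665), had 4 coding transcripts. In the authors' deposited table these lay at −8.76 for NM_001242825, −0.35 for NM_001135822, 0.02 for NM_001135821 and 0.56 for NM_001242824. The lowest transcript, at 0.230% of control, links to the model with the shortest coding sequence of the 4, 744 bases, against 1059 and 1257 in the others. The remaining transcripts straddle 0, and the gene value was −0.16. RefSeq lists 10 pseudogenes named for FDPS, 3 each for IDI1 and CYP51A1, 2 for HSD17B7 and 1 each for SCD and ACSL3, so values of these genes are uncertain: the sources used here do not say how reads shared with such copies were counted. Nor do they say whether counting used the strand, and ACAT2 overlaps TCP1 and SOD2, MVK overlaps MMAB, IDI1 overlaps WDR37 and SREBF1 overlaps RAI1 in RefSeq, each partner being measured too.

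From squalene to cholesterol, 11 genes had a median of −0.14, with 7 below and 4 above 0. The first gene, FDFT1, encodes squalene synthase and lies on chromosome 8 at 11795582 to 11839298. NM_004462, its principal transcript by the APPRIS ranking, lay at 0.25 in the authors' deposited table, or 119% of control, and NM_001287748 at −8.28, or 0.323% of control. The lower transcript links to a model that starts 478 bases further along and lacks 192 of the coding bases of the other. The gene value of −4.01 is the midpoint of values on either side of 0. SQLE, squalene epoxidase, a flavoprotein that adds the oxygen of cholesterol, had the highest gene value of the 37, at 0.47 or 139% of control, from its 1 transcript in the authors' deposited table.

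LSS, lanosterol synthase, closes the sterol rings (chromosome 21 at 46188446 to 46228774). Its transcripts NM_002340 and NM_001001438, which share a coding sequence, lay together at −0.08 and −0.11 in the authors' deposited table. NM_001145436, which lacks 33 coding bases, was at 0.16, and NM_001145437, which lacks the first 240 coding bases, was at −1.46 in the authors' deposited table. CYP51A1, the lanosterol demethylase, had −0.07 and 0.39 in the authors' deposited table.

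TM7SF2, a sterol reductase of the endoplasmic reticulum (chromosome 11 at 65111872 to 65116230), had the widest range of these 11 genes after FDFT1. In the authors' deposited table its longest coding transcript NM_003273 lay at −3.01, or 12.4% of control. The coding transcript NM_001277233 lay at −0.46 and the non-coding NR_102367 at 1.40 in the authors' deposited table. The transcripts NM_003273 and NM_001277233 differ in 81 coding bases, in 1 block at 65115314 to 65115394. These stretches of LSS and TM7SF2 separate a transcript that is lower by at least 1 from others that are not, and are shown with 15 coding bases on each side where there are any. Capitals mark the bases that the longer coding sequence has and the shorter lacks. For LSS they are on the minus strand, in 3 blocks between 46227631 and 46228745, and here the lower transcript is the shorter one. For TM7SF2 they are on the plus strand, and the lower transcript is the longer one.
LSS, in NM_002340 and not NM_001145437: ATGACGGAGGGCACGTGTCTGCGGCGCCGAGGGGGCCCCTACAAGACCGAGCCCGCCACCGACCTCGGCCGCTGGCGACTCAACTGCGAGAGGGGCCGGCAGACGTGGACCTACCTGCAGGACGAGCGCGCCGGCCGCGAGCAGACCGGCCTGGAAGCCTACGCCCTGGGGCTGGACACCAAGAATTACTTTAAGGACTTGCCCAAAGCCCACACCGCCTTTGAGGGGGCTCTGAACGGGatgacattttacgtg
TM7SF2, in NM_003273 and not NM_001277233: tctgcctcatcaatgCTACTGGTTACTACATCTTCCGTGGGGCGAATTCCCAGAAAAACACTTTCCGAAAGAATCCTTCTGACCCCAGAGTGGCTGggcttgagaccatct

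MSMO1, the methylsterol oxidase, was at −0.30 and the reductase HSD17B7 at −0.25 by the authors' deposited table. NSDHL, which removes methyl groups from the sterol ring, had −0.38 and 0.73 for transcripts with the same coding bases in the authors' deposited table. The sterol isomerase EBP was at 0.17 and DHCR7, which reduces the last precursor to cholesterol, at −0.14, both in the authors' deposited table. SC5D, a sterol desaturase (chromosome 11 at 121292771 to 121313410), had NM_006918 at 0.25 and NM_001024956 at −1.12 in the authors' deposited table. The SC5D models share their coding bases and start 399 bases apart. Over all members, 38 pairs of transcripts link to different models and 17 of these lie more than 1 apart, with a median distance of 0.67. The 14 pairs that link to the same model had a median distance of 0.82, and 5 of them lie more than 1 apart. These pairs share genes, so they are not independent of each other.

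Among the regulators, the median of 6 genes was −0.08, with 3 below and 3 above 0. SREBF1, the SREBP that mainly drives fatty acid genes (chromosome 17 at 17811334 to 17836986), was lower in both of its transcripts, at −0.35 for NM_004176 and −0.78 for NM_001005291 in the authors' deposited table. Its gene value of −0.56 is 67.6% of control. The lower transcript carries 90 further coding bases, in 1 block at 17823518 to 17823607 on the minus strand, which is shown in capitals within its coding sequence as the stretch that separates them.
SREBF1, in NM_001005291 and not NM_004176: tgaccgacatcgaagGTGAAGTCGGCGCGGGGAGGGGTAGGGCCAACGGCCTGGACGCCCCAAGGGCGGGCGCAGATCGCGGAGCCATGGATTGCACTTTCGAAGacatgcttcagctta

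SREBF2, the SREBP that mainly drives cholesterol genes (chromosome 22 at 41833105 to 41907305), lay nearer control at −0.18 in the authors' deposited table, and SCAP lay at 0.02. INSIG2, which retains SCAP and has 1 measured transcript (chromosome 2 at 118088471 to 118110997), stood at −0.74 in the authors' deposited table, which is 59.8% of control and percentile 7.06 of all genes. Its relative INSIG1, itself a well-known SREBP target, was split, with −0.50 for NM_005542 and 0.62 for NM_198336 in the authors' deposited table. STARD4, a cytosolic sterol carrier, had 3 coding transcripts at 0.13, 0.19 and 0.35, a non-coding one at 0.72 and NM_001308056 at −1.09 in the authors' deposited table. All 4 coding transcripts of STARD4 link to the same GENCODE model.

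For SREBF2 the RefSeq promoter (GRCh38.p14, plus strand, chr22:41832855-41833154, 250 bases before to 50 after the start) is shown because it alone, of 33 member promoters matched by symbol, holds a match to TCACNCCAC, the form of the sterol regulatory element searched for on both strands. The match, in capitals, begins 133 bases before the start.
SREBF2 promoter: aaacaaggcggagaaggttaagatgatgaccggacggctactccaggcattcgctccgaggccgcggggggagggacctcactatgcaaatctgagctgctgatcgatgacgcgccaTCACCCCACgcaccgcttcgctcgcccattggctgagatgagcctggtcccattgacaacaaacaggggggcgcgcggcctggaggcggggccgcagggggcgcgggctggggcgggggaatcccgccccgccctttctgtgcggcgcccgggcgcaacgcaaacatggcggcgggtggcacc

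Among all 10012 promoters of measured genes, 102 (1.02%) hold this motif, against 3.03% of member promoters, which is this 1 gene. The form CACCCCAC, which overlaps the first in this promoter, was found in 2.37% of all promoters and again in SREBF2 alone of the members. The shorter CCAAT box, bound by NF-Y, was present on either strand in 21 of 33 member promoters (63.6%) and 37.3% of all promoters. GGGCGG, the box bound by SP1, was in 30 of 33 (90.9%) and in 71.5% of all promoters. Members with CCAAT had a median of −0.16 and those without it 0.05, beside 0.02 and 0.01 for all genes with and without it. A match in this window is a description of letters. Its absence does not show that a promoter lacks a sterol element, which may differ in form or lie outside the window. ACAT2, FASN, FDFT1 and SQLE had no window matched.

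From acetyl-CoA to palmitate, 4 genes had a median of −0.25, with 3 below 0 and none beyond 0.5. ACLY, which splits citrate into acetyl-CoA (chromosome 17 at 41866917 to 41930545), had 4 transcripts, with −0.76, −0.32, −0.02 and 0.39 as their values in the authors' deposited table. A block of 30 coding bases, at 41896620 to 41896649 on the minus strand, is in NM_001096 and NM_001303274 and not in NM_198830 and NM_001303275. The values with it, −0.32 and 0.39, and without it, −0.76 and −0.02, overlap in the authors' deposited table. It is shown in capitals because it is the coding difference between the models that these 4 transcripts link to.
ACLY, in NM_001096 and NM_001303274: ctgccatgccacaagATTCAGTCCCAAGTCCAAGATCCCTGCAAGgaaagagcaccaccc

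ACSS2, which makes acetyl-CoA from acetate, had 0.18 and −0.82 in the authors' deposited table for transcripts of the same GENCODE model. ACACA, acetyl-CoA carboxylase, which makes malonyl-CoA, had −0.48, 0.09 and 0.27 in the authors' deposited table, for models whose start sites lie from 47664 to 107013 bases apart. The synthase FASN (chromosome 17 at 82078338 to 82098236), which builds palmitate, was at −0.49 in the authors' deposited table, or 71.4% of control, from 1 transcript.

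Elongases and desaturases, 6 genes, had a median of 0.06, with 3 below and 3 above 0. SCD, the desaturase that makes oleate (chromosome 10 at 100347233 to 100364826), was the lowest member with 1 transcript, at −0.86 in the authors' deposited table, or 55.3% of control and percentile 5.36 of all genes. ELOVL6, which lengthens palmitate, was at −0.35 and −0.56 in the authors' deposited table. ELOVL1, which makes very long chains, had −0.01, 0.16 and 0.24 in the authors' deposited table. FADS1, a desaturase of polyunsaturated fatty acids, was at 0.16 there. FADS2, which acts before FADS1 and overlaps it on chromosome 11, had −0.39 and 0.63 in the authors' deposited table. ELOVL5, which lengthens polyunsaturated fatty acids, had −0.14, −0.0042 and, for NM_001301856, 2.69 in the authors' deposited table. That last value, 6.45-fold, was the highest of the 72 transcripts, and it links to the same GENCODE model as the transcript nearest 0.

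Acyl-CoA synthetases, which activate fatty acids for use, had a median of 0.29 over 3 genes. With these, the 13 fatty acid genes had a median of −0.0042, with 7 below and 6 above 0. ACSL1 was at −0.06 and ACSL3, with 0.16 and 0.41, lay above 0 in the authors' deposited table. ACSL4, which prefers arachidonate (chromosome X at 109641335 to 109733257), had NM_022977 at 1.12, or 2.17-fold, and NM_004458 at −0.18 in the authors' deposited table. The higher transcript begins its coding sequence 123 bases earlier, at 109683364 to 109683486 on the minus strand, and ends in the same 3′ UTR. These bases, in capitals, are what sets the higher ACSL4 transcript apart in its coding sequence.
ACSL4, in NM_022977 and not NM_004458: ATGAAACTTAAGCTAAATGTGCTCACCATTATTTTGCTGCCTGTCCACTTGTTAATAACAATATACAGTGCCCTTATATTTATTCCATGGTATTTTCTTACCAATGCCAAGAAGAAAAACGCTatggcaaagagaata

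**Figure D3:**
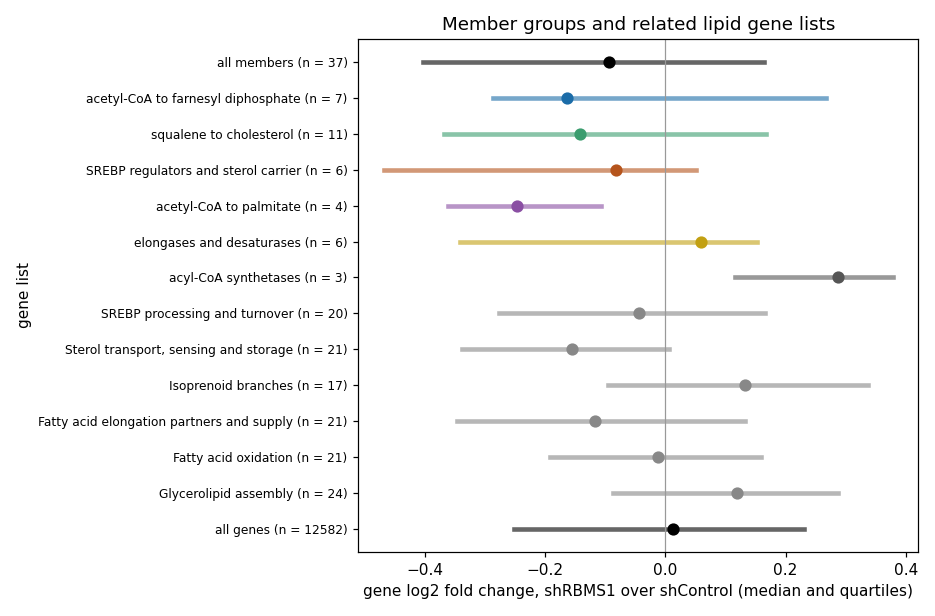
Median (point) and quartiles (bar) of gene log2 fold change, shRBMS1 over shControl (horizontal axis), for the 37 members, their 6 groups, 6 related lipid gene lists and all 12582 genes, with the number of measured genes beside each name. Group medians of members lie between −0.25 and 0.29, and those of the related lists between −0.16 and 0.13.

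The medians of the related lipid lists also lay near control. The 20 measured genes that process or turn over SREBPs had a median of −0.04, and 0 were lower and 0 higher by at least 1, beside 3.96% lower and 3.95% higher among all genes. PRKAA1, a catalytic subunit of AMP-activated kinase, was lowest at −0.98, with 1 of its 2 transcripts above 0 by the authors' deposited table, and UBXN8 highest at 0.63. Of 21 genes of sterol transport, sensing and storage, 1 was lower and 1 higher by at least 1, and the median was −0.16. The oxysterol receptor NR1H3 stood at −1.37, between −3.30 and 0.56 in the authors' deposited table, and the ester hydrolase NCEH1 at 3.74, between −0.42 and 7.89 there.

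Isoprenoid branch genes, which use farnesyl diphosphate for dolichol, ubiquinone and protein prenylation, had a median of 0.13 over 17 genes and none beyond 1. DHDDS, of dolichol synthesis, was highest at 0.94 and the prenyltransferase subunit RABGGTA lowest at −0.65. The authors' deposited table has DHDDS transcripts at −1.46, 0.94 and 1.53, and those of RABGGTA at −0.85 and −0.45. The partners and suppliers of fatty acid elongation had a median of −0.12 over 21 genes, 1 of them higher by at least 1 and 0 lower. That was DBI, the acyl-CoA binding protein, at 3.05 where the authors' deposited table has transcripts from 0.26 to 7.50, while ACSL5 was lowest at −0.94. Fatty acid oxidation, the opposite route, had a median of −0.01 over 21 genes, with HADHB, of the trifunctional protein, at 1.95 the only gene beyond 1 and ETFB lowest at −0.58. In the authors' deposited table the HADHB transcripts lay at 0.03, 1.95 and 2.71, and those of ETFB at −0.06 and −1.10. Glycerolipid assembly had a median of 0.12 over 24 genes. There GPAM and GPAT3, which start glycerolipid synthesis, were lower at −1.71 and −1.41, each with a transcript above 0 in the authors' deposited table, and CHKB was highest at 0.53. Over the 124 measured genes of these 6 lists, 3 (2.42%) were lower and 3 (2.42%) higher by at least 1, beside 3.96% and 3.95% of all genes, and these counts are too small to read more from them.

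Since RBMS1 is known to bind AUAUA, the annotated 3′ UTR of each member was searched for ATATA, written as DNA, on the sense strand, and overlapping sites were each counted. All 37 members had a 3′ UTR of a coding transcript, and 19 (51.4%) held at least 1 site, beside 6574 of 11188 genes (58.8%). Members with a site had a median of 0.06 and those without a median of −0.21, beside 0.02 and −0.0049 over all genes with and without a site. Below 0 lay 9 of 19 with a site and 12 of 18 without. The 3′ UTRs with a site were longer, with a median of 1648 bases against 569.5 bases without. With TATAT in place of ATATA the members' medians were nearly the same, −0.10 with and −0.09 without. For ATATA, taking the least changed transcript of each gene gave −0.07 with and −0.07 without a site. Taking the most changed gave 0.16 with and −0.44 without. The difference between the medians thus depended on the form of the motif and on how the value of a gene was taken.

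The 4 members with 10 or more sites did not lie on the same side of 0. INSIG2 with 11 sites and SCD with 10 were at −0.74 and −0.86, whereas ACSL4 with 12 sites and STARD4 with 10 were at 0.47 and 0.19. ACSL4 and STARD4 each have transcripts on both sides of 0 in the authors' deposited table. Those of ACSL4, whose models share a 3′ UTR, lay at 1.12 and −0.18, and those of STARD4 from −1.09 to 0.72. By gene value, members with many sites thus lay on both sides of 0, as the plot of sites against gene values shows. The side on which ACSL4 and STARD4 lay depended on how their transcripts were combined. For each of these 4 genes the first site with 12 bases on each side is printed from the GENCODE 29 transcript, with the site in capitals.
INSIG2 (chromosome 2, base 60 of the 3′ UTR): gtgaaatggtagATATAccaacaaaactt
SCD (chromosome 10, base 736 of the 3′ UTR): caatgccgcaacATATAgttgaggccgag
ACSL4 (chromosome X, base 271 of the 3′ UTR): aattagcctaagATATActtgtttttgta
STARD4 (chromosome 5, base 775 of the 3′ UTR): gcaaatctttgtATATAtttttttgtgta

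**Figure D4:**
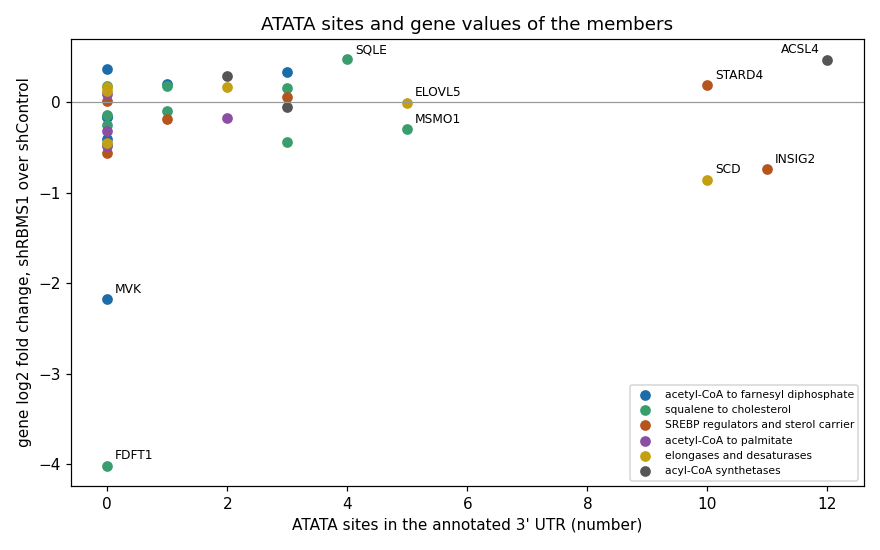
Gene log2 fold change of shRBMS1 over shControl (vertical axis) against the number of ATATA sites in the annotated 3′ UTR (horizontal axis) for the 37 members, coloured by pathway group. INSIG2 and SCD lie below 0 and ACSL4 and STARD4 above it at 10 to 12 sites, and MVK and FDFT1, the lowest genes, have 0 sites. MVK, FDFT1, ACSL4 and STARD4 each have transcripts on both sides of 0.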

How the data were processed

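Total RNA of 3 SW480 libraries was compared by the shRNA in the labels, 1 shRBMS1 against 2 shControl. STAR 2.5, Cufflinks, Cuffdiff and the hg38 build are named, without roles or settings, per the submitters' processing notes. The authors deposited log2 fold changes for 20104 RefSeq transcripts; levels, counts and filters were not analysed here. The file header gives neither base nor direction. Base 2 was taken because 20 transcripts lay at a distance of 1, within 1.5e-05, from any of 14 values each shared by 3 or more transcripts, against 4 and 5 for the distances of base e and base 10. RBMS1 below 0 set the direction; if it were the other way, every sign would turn.

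Symbols and coordinates came from RefSeq (GRCh38.p14, the hg38 assembly), which matched 98.6% of transcripts. Transcript models and 3′ UTRs came from GENCODE 29 through its RefSeq links, which joined 70 of the 72 member transcripts, some to a shared model; the model's coding and UTR lengths are those of that link. Gene values are medians of transcripts. Counts at a fold of 1 or 0.5 carry no test. The 3′ UTR searched is the longest of a gene's measured coding transcripts. Every member was named, as were the lowest and highest gene of each related list, and GPAT3 was added after its value was seen. Members and lists were chosen with earlier results of these data known. The code for counting and motif search was run on simulated data, where 100% of 200 shifted genes (of 12582) and 100% of 200 planted motifs were recovered. Values there were held within a fold of 1, and all transcripts of a shifted gene were moved far past it. The motifs were planted in sequence of A and G alone. Full recovery was set by this design, so it checks the code and not how reliable the values are. Python 3.11.15, numpy 2.4.6 and pandas 2.3.3 were used.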

Additional observations from a re-analysis of the deposited data

How the results depend on the processing

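With 1 shRBMS1 library and no values per library, no replicate could be left out and no paired analysis was possible. Depth could not be assessed. The settings "best APPRIS rank" (the annotation's ranking of principal isoforms) and "without transcripts beyond 5" were chosen after seeing the data. Members lower by at least the threshold, 2 at a fold of 1, numbered 5 at 0.5 (13.5%, beside 12.9% of all genes), 4 at 0.58 (10.8%, beside 10.5%), 0 with the least changed transcript (beside 2.63%), 7 with the most changed (18.9%, beside 10.1%), 0 among genes with 1 transcript (beside 3.23%) and 0 without transcripts beyond 5 (beside 3.10%). Members higher, 0 at a fold of 1, numbered 2 each with the most changed transcript (5.41%, beside 9.83% of all genes), the longest transcript (5.41%, beside 5.40%) and the best APPRIS rank (5.88%, beside 3.64%). Member transcripts lower, 7 (beside 7.86% of all transcripts), numbered 14 at 0.5, 12 at 0.58, 4 at 2 and 4 without transcripts beyond 5. Those higher, 3 (beside 8.27%), numbered 10, 9 and 1 at 0.5, 0.58 and 2. Within 0.5 of 0 lay 48 of the 72 member transcripts (66.7%) and 65.6% of all transcripts. For the other settings no share of all transcripts is given, so nothing is read from those counts. FDFT1 turned to 0.25 with the least changed or longest transcript, the best APPRIS rank and without transcripts beyond 5. MVK turned to 0.71 with the least changed transcript and without transcripts beyond 5. Of 124 related-list genes, those lower, 3, numbered 13 at 0.5 (beside 12.9% of all genes), 11 at 0.58 (10.5%) and 0 at 2 (1.27%). With the least changed transcript 0 were lower (2.63%), and with the most changed 9 (10.1%). With the longest and the best APPRIS rank 5 each were lower (5.68% and 4.86%), and 0 among genes with 1 transcript (3.23%). Those higher, 3, numbered 12 at 0.5 (10.2%), 8 at 0.58 (8.35%) and 6 with the most changed transcript (9.83%). With the least changed, among genes with 1 transcript and by APPRIS rank 0 were higher (2.77%, 3.31% and 3.64%). No median of the members, their groups or the sterol element and ATATA classes moved by 0.58 or more, but such small moves can turn its sign: the acyl-CoA synthetases had −0.06 with the least changed transcript. That limit is wider than the difference between members with and without ATATA, 0.06 and −0.21. The median of all members ranged from −0.24, its mean, to 0.02, without transcripts beyond 5, so its sign depends on the setting. For 16 of the 37 genes the sign changed with the way of taking 1 value per gene, and 10 moved by at least 0.58. FDPS passed a fold of 1 at −2.13 with the mean. TM7SF2 passed it at −1.73 with coding transcripts alone, and at −3.01 with the longest or the best APPRIS rank, as did ACSL4 at 1.12. ELOVL5 passed it at 1.34 by APPRIS rank, the median of equally ranked transcripts. With the longest transcript, MVK stood at −5.06, STARD4 at −1.09 and ELOVL5 at 2.69. In each of these genes the longest transcripts tie in length, and the order of identifiers set which was taken. The counts with the longest transcript include such ties. With the most changed transcript, FDPS, LSS, TM7SF2, SC5D, STARD4, ELOVL5 and ACSL4 passed a fold of 1.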
